A study of Mus musculus with 20 samples.

Results

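The genes described here encode subunits of the mitochondrial respiratory chain that lie in the nuclear genome. A list of 51 mouse gene symbols was matched to the Ensembl identifiers of the deposited table, and all 51 were found among its 39017 genes. Of these, 31 belong to complex I (names beginning with *Nduf*), 4 to complex II (*Sdh*), 7 to complex III (*Uqcr* genes and *Cyc1*) and 9 to complex IV (*Cox*). The list was set by gene name and not by measured values, and all 51 genes passed the filter of a mean of at least 1 FPKM.

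RNA sequencing was done on bone marrow of mice that carried transplanted T lineage acute lymphoblastic leukemias (T-ALLs) induced by insertional mutagenesis (IM). The leukemias arose in C57Bl/6 x 129Sv/Jae F1 mice that were injected as pups with the MOL4070LTR retrovirus and were passaged into irradiated wild-type F1 adults. Each leukemia stands for 1 tumor whatever its number of libraries. The leukemias were not grouped by genotype. Each of 9 leukemias (20M, 2M, 5C, 73A, 73M, 78A, 8633, JW14 and JW81) gave 2 libraries, 1 in a column whose name carries VEH and 1 in a column that carries DEX. The sources used here do not explain these letters, and they are used below only as column names. A further leukemia, 4638, was kept out of the tests as in earlier processing of these data, and its values are given apart.

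The respiratory chain sits in the inner mitochondrial membrane. Complex I oxidizes NADH, complex II oxidizes succinate, and both pass electrons through ubiquinone to complex III, from which cytochrome c carries them to complex IV, where oxygen is reduced. Complexes I, III and IV pump protons and so drive ATP synthase, and each combines subunits encoded in the nucleus with subunits encoded in mitochondrial DNA, whereas complex II is built from nuclear subunits alone. In lymphocytes the chain is known for supplying ATP and for regenerating the oxidized cofactors that growing cells need.

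The 18 libraries of the 9 leukemias held 8226528 (DEX library of JW14) to 201222288 counts (VEH library of 73M). A count of 3 on a gene with 1 kb of exon equals 0.365 FPKM in the shallowest library and 0.0149 FPKM in the deepest, and the lowest value of any of the 51 genes in any leukemia was 3.58 FPKM (*Ndufb2* in JW81). Ribosomal RNA genes exceeded 1 count per M in 5 libraries, which were DEX for JW14, JW81, 20M and 73M and VEH for 5C. These genes held 21.6 (20M) to 64.0 counts per M (JW14) there, a very small part of each library. The same 5 libraries had 111 to 142 genes of 100 to 150 bases with at least 3 counts, against 17 to 49 in the others. They are called ribosomal RNA libraries below by the threshold alone, and what sets them apart was not tested. The T lineage list of *Cd2*, *Cd3d*, *Cd3e*, *Cd3g*, *Cd247*, *Cd5*, *Thy1* and *Lck* had a mean log2(FPKM + 1) of 5.12 (5C) to 6.17 (20M) in the 9 leukemias and of 3.54 in 4638. Lists for other marrow cells lay at 1.25 to 6.56 (neutrophil), 0.350 to 3.62 (erythroid), 1.08 to 2.09 (macrophage) and 0.0913 to 1.11 (B lineage). The neutrophil list was lowest in JW14, where *Elane* had a value of 0, and highest in 73A. In these bulk marrow samples fewer cells of a type and less RNA per cell cannot be told apart.

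The respiratory chain genes were abundant in every leukemia. Their median was 36.2 FPKM, against 7.30 FPKM over all 11339 genes tested, and 48 of the 51 were at 10 FPKM or more in each of the 9 leukemias. FPKM here is the expected count divided by the length of all exons of the gene and by the library total. These genes had a median of 1569 bases of exon against 4052 over all genes tested.

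Within complex I, *Ndufb9*, a subunit of the membrane arm, had the highest level at 72.1 ± 23.1 FPKM (SD, n = 9 leukemias). *Ndufb2*, also of the membrane arm, had the lowest at 4.46 ± 0.714 FPKM (SD, n = 9). Within complex II, *Sdhd*, one of the membrane anchors, was highest at 64.5 ± 7.73 FPKM and *Sdhc*, the other anchor, lowest at 16.4 ± 3.003 FPKM (SD, n = 9). Complex III ranged from *Uqcrq*, a small accessory subunit, at 22.3 ± 5.71 FPKM to *Uqcrh*, the hinge protein near cytochrome c1, at 98.1 ± 9.95 FPKM (SD, n = 9). Complex IV ranged from *Cox7c* at 19.4 ± 5.16 FPKM to *Cox8a* at 154 ± 24.3 FPKM (SD, n = 9), both small accessory subunits. The order depended on the length used. With the median length of the basic protein-coding transcripts in place of all exons, the highest genes were *Ndufa4* (176 FPKM), *Sdhb* (82.6), *Uqcrh* (256) and *Cox4i1* (241), while *Ndufb2* (10.4), *Sdhc* (26.7) and *Cox7c* (40.6) remained lowest in their complexes and *Cyc1* (45.5) took the place of *Uqcrq* in complex III. Exons of 18 of the 51 genes overlapped those of another gene, among them *Ndufb2* with *Braf* and *Ndufb9* with a predicted gene, and reads of such stretches could be divided between the genes.

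A score was calculated for each complex as the mean of log2(FPKM + 1) over its genes, averaged over the 2 libraries of a leukemia. The score was 4.73 ± 0.205 for complex I, 5.26 ± 0.161 for complex II, 5.56 ± 0.186 for complex III and 5.95 ± 0.220 for complex IV (SD, n = 9 leukemias). All 4 complexes were lowest in 20M, highest in JW14 and second highest in 8633. In complexes II and III 73M was close to 20M, at 5.09 and 5.36 against 5.04 and 5.29. The median difference between the 2 libraries of a leukemia was 0.046 and 0.068 there, so the place of 20M below 73M is weakly resolved. With VEH columns alone 73M was lowest in complex III. Complex I was at 4.41 in 20M. It was at 4.57, 4.59 and 4.60 in 73M, 73A and 2M, at 4.72 and 4.81 in JW81 and 78A, and at 4.95, 4.96 and 4.98 in 5C, 8633 and JW14. The values of 5C, 8633 and JW14 differed by less than the 2 libraries of a leukemia typically did (median difference 0.105 for complex I), so their order among themselves is not resolved. Complex IV had the widest range, from 5.63 in 20M to 6.29 in JW14, and complex II the narrowest, from 5.04 to 5.50. These ranges of 0.46 to 0.66 correspond to 1.38-fold to 1.58-fold. Which complex ranged most depended on the processing. Complex I was wider than complex IV with VEH columns alone (0.580 against 0.543) and with the median over genes (0.658 against 0.554). With TPM complex III was narrower than complex II (0.513 against 0.520). The largest difference between the 2 libraries of a leukemia was 0.206 for complex I (73M), 0.1002 for complex II (78A), 0.138 for complex III (73A) and 0.182 for complex IV (73A), so each range across leukemias was wider than every difference within a leukemia.

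**Figure D1:**
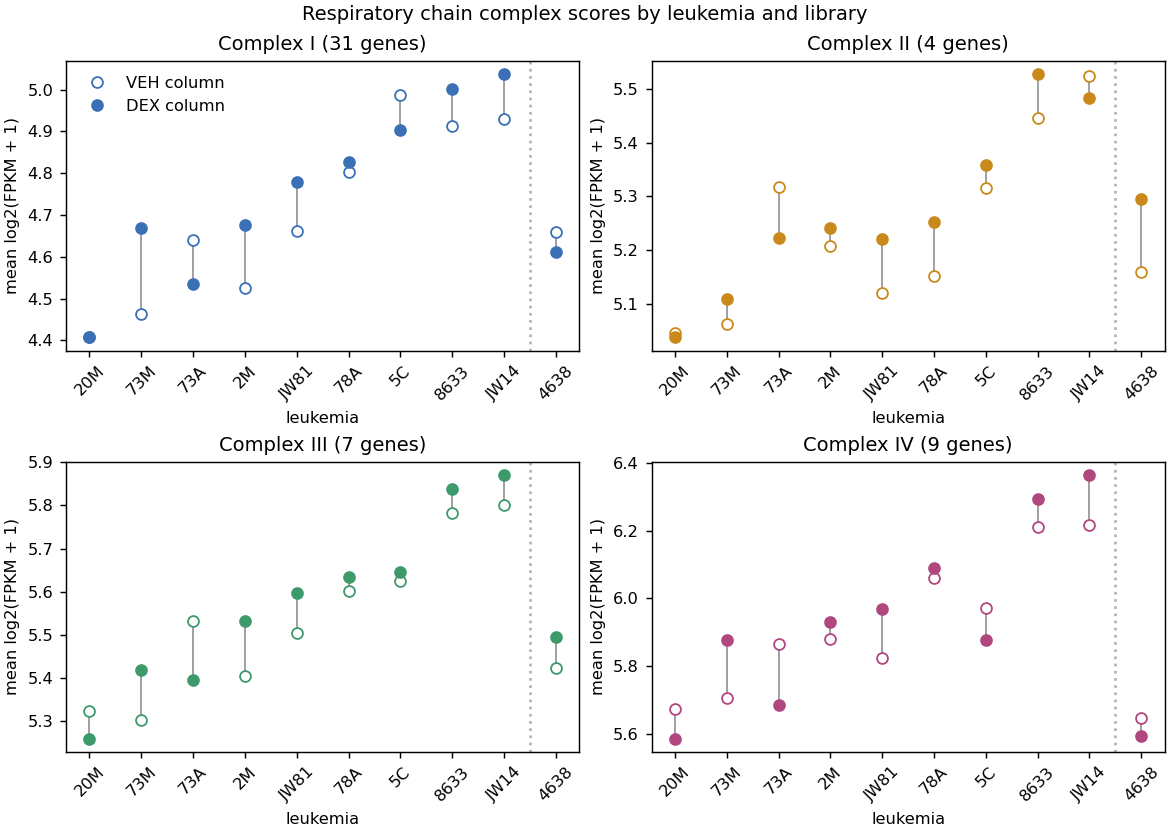
Mean log2(FPKM + 1) of the genes of each complex (vertical axis) in the VEH library (open circles) and the DEX library (filled circles) of each leukemia (horizontal axis, ordered by the mean of the 4 scores, with 4638 at the right of the dotted line). Left of the dotted line the mean of each pair is lowest in 20M and highest in JW14 and then 8633 in all 4 complexes, 4638 lies below 20M in complex IV, and complex I runs from 4.41 to 4.98.

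The order ran roughly against the median of all genes tested. That median was 3.06 in 20M and lowest in 8633 (2.91), JW14 (2.92) and 5C (2.94). After TMM scaling the mean over the 51 genes was 4.76 in 20M and 5.43 in JW14. The median of all genes was then 3.04 in 20M and still lowest in 5C (2.94), 8633 (2.96) and JW14 (2.98). The part of library scaling in the order was not tested. On the TPM scale 8633 was highest in each complex, and 20M was lowest in complexes I and IV, JW81 in complex II and 73M in complex III. The neutrophil list was at 5.54 in 20M, 1.25 in JW14 and 3.86 in 8633. It was higher in 73A (6.56) than in 20M, while the complex scores of 73A were above those of 20M. The part of these other cells in the scores was not tested. In 4638 the scores were 4.64, 5.23, 5.46 and 5.62 for complexes I to IV, and only that of complex IV lay outside the range of the other 9 leukemias, below 20M.

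With the leukemia terms tested together in the edgeR quasi-likelihood model, 50 of the 51 genes differed between leukemias at an adjusted p of 0.05, where 82.5% of all genes tested did. The exception was *Ndufs4*, an accessory subunit beside the NADH-oxidizing module of complex I, at 16.6 (73A) to 20.3 FPKM (5C) (edgeR adjusted p = 0.179). The differences were small for most of the genes. In 41 of the 51 the highest leukemia was less than 2-fold above the lowest, and the median range of log2(FPKM + 1) was 0.716 against 0.939 over all genes tested. The median difference between the 2 libraries of a leukemia was 0.119 for these genes and 0.161 for all.

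After *Ndufs4* (range 0.27), the narrowest ranges were those of *Uqcrh* (0.42), *Uqcrc2*, a core protein of complex III (0.45), *Ndufs3*, a core subunit of complex I (0.47), and *Ndufb11* of its membrane arm (0.49). *Uqcrh* was at 83.8 FPKM in 2M, where it was lowest, a median of 98.3 FPKM and 112 FPKM in JW81, where it was highest. Counting leukemias by the genes they held at an extreme, 25 of the 51 genes were lowest in 20M and 11 in 2M, while 20 were highest in JW14, 13 in 8633 and 9 in 5C.

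The widest ranges belonged to *Cox7a2*, *Ndufs5*, *Ndufa4*, *Ndufb9* and *Uqcrq*, and these genes did not share 1 pattern. *Cox7a2* encodes the broadly expressed form of a small complex IV subunit (chromosome 9 of GRCm38, 79755361 to 79759878). It was at 22.8 FPKM in the VEH library and 20.7 FPKM in the DEX library of 5C. In the 16 libraries of the other 8 leukemias it was at 45.6 to 77.5 FPKM, so 5C did not overlap with any of them, although 5C was among the highest leukemias in the complex I score.

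*Ndufs5*, an accessory subunit of complex I (chromosome 4, 123712710 to 123718202), was at 38.5 and 42.3 FPKM in the DEX and VEH libraries of 5C. It was at 10.9 and 13.3 FPKM in those of 20M, 13.5 and 14.9 FPKM in those of 8633, and 13.7 and 12.5 FPKM in those of JW14. Its 3 lowest leukemias thus included the 2 with the highest complex scores, and it was 3.34-fold higher in 5C than in 20M (edgeR adjusted p = 4.67e-07 for any difference between leukemias). *Ndufa4*, named with complex I but also known as a component of complex IV (chromosome 6, 11900292 to 11907497), was lowest in 2M at 34.0 and 30.4 FPKM (DEX and VEH). It was at 94.4 and 84.4 FPKM in 8633, 91.6 and 80.4 FPKM in JW14, and 77.5 and 86.0 FPKM in 5C, with no overlap between these 3 leukemias and the other 6.

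*Ndufb9* (chromosome 15, 58933756 to 58939488) was at 46.3 and 36.8 FPKM in the DEX and VEH libraries of 20M and 44.7 and 45.97 FPKM in those of 73A. It reached 105 and 95.1 FPKM in 8633 and 118 and 104 FPKM in JW14, 2.68-fold from the lowest to the highest leukemia. *Uqcrq* (chromosome 11, 53427922 to 53430831) was at 14.4 and 13.3 FPKM in 20M and at 31.0 and 29.8 FPKM in 8633. In 73M its 2 libraries were far apart, at 21.02 FPKM (DEX) and 13.3 FPKM (VEH).

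**Figure D2:**
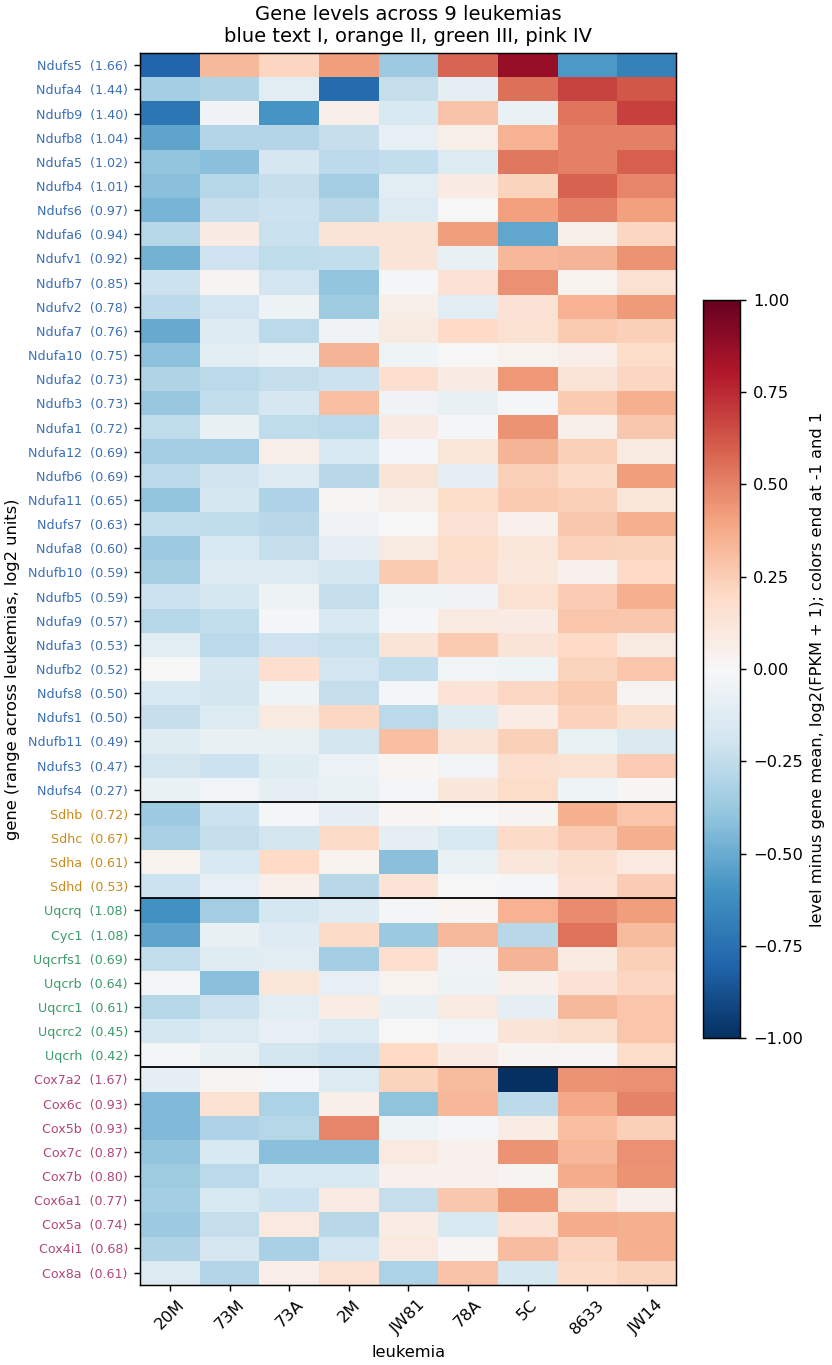
Level of each of the 51 genes (rows, grouped by complex, with the range across leukemias in brackets) in the 9 leukemias (columns) as log2(FPKM + 1) minus the mean of the gene, averaged over 2 libraries. Most rows pass from blue in 20M to red in 8633 and JW14, while *Ndufs5* is low in 20M, 8633 and JW14 and *Cox7a2* is low in 5C, at 21.7 FPKM, beyond the end of the color scale.

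Of the 51 genes, 4 lie on chromosome 15: *Ndufa6* and *Ndufb9* of complex I, *Cyc1*, the cytochrome c1 of complex III, and *Cox6c* of complex IV. The median of the 415 other genes tested on that chromosome, each taken as its level minus its mean over the 9 leukemias, was between 0.0813 and 0.236 above zero in 2M, 73M, 78A, 8633 and JW14 and between -0.276 and -0.173 in the other 4. *Cox6c* (chromosome 15, 35925886 to 35938246) had the sign of that median in 9 of 9 leukemias, and *Ndufa6* (82350140 to 82354322), *Ndufb9* and *Cyc1* (76343523 to 76346260) in 8 of 9 each. Among the 47 genes on other chromosomes the median was 5 of 9, the range 3 to 8, and 1 gene reached 8. *Cyc1* was lowest in 20M (21.3 FPKM) and highest in 8633 (45.9 FPKM), and *Cox6c* was lowest in 20M (28.1 FPKM) and highest in JW14 (54.5 FPKM). *Ndufa6* departed from the chromosome in JW81, where it was 0.13 above its mean while the chromosome was at -0.276.

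Chromosome 1 was examined after its values were seen. The median of its 635 other genes was 0.343 above the mean in 2M and between -0.153 and 0.0407 elsewhere. Of the 5 respiratory chain genes on it, *Cox5b* and *Ndufa10* were highest in 2M, *Ndufb3* and *Ndufs1* ranked 2 and *Sdhc* 3 among the 9 leukemias, although the complex I score of 2M was below the mean. Elsewhere they did not follow the chromosome. The sign of its median was shared in 2 (*Ndufa10*), 3 (*Cox5b* and *Sdhc*) and 4 of 9 leukemias (*Ndufb3* and *Ndufs1*), and all 5 genes were above zero in 8633 and JW14, where the chromosome was at -0.135 and -0.153. *Cox5b*, a nuclear subunit of complex IV, was at 73.7 FPKM in 2M and at 38.3 to 64.5 FPKM in the other 8. For the remaining 42 genes, on 16 other chromosomes, the median of the other genes of the chromosome stayed between -0.141 and 0.151. DNA copy number was not analysed here.

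**Figure D3:**
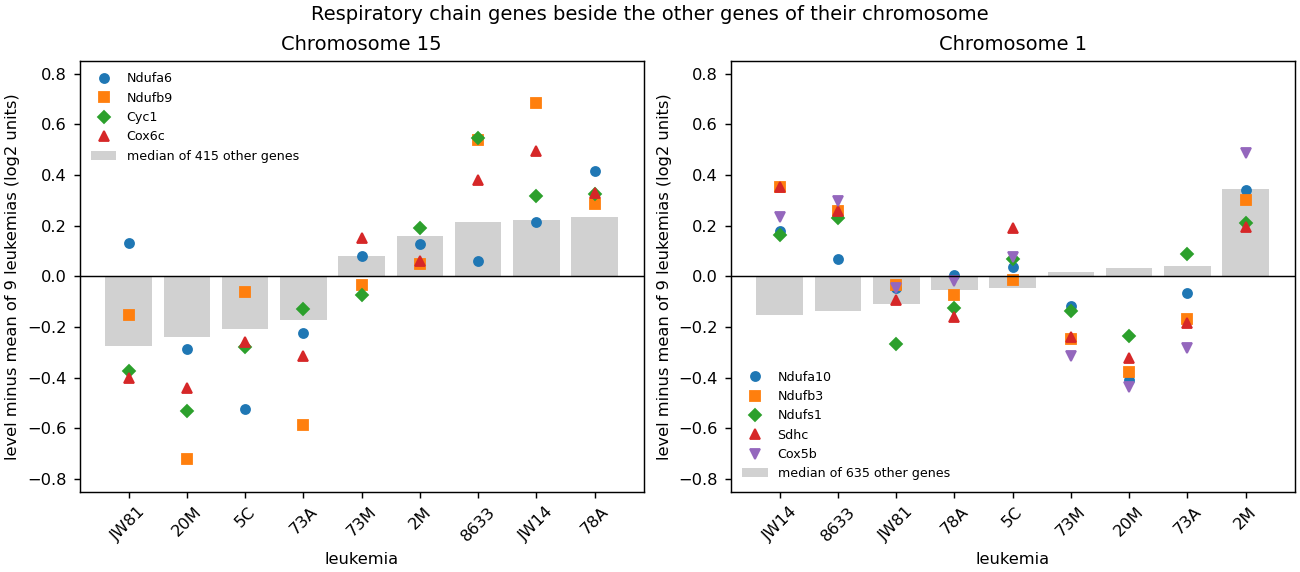
Level of the respiratory chain genes on chromosomes 15 (left) and 1 (right) in each leukemia, as log2(FPKM + 1) minus the mean over 9 leukemias (colored symbols), beside the median of the other genes of the chromosome (gray bars), with leukemias ordered by that median. On chromosome 15 nearly all symbols lie on the side of the bar, with *Cox6c* there in 9 of 9, and on chromosome 1 all 5 genes lie above zero in 2M, as does the bar, but also in 8633 and JW14, where the bar is below zero.

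Regulatory motifs were looked for in the RefSeq promoters (GRCm38.p6, 250 bases before to 50 after the start), which were given for 41 of the 51 genes. The factors NRF1, ETS proteins such as GABP, and YY1 are known to bind promoters of many nuclear genes for mitochondrial proteins. The letters GCGCANGCGC (NRF1) occurred on either strand in 11 promoters (26.8%), against 5.19% of 27025 genes and 12.6% of the 8167 other genes tested here that have a promoter in the table. CCGGAAG (ETS) occurred in 9 (22.0%), against 9.93% of all genes and 23.2% of the other genes tested, so its share was no higher than among expressed genes. AAGATGGC (YY1) occurred in 6 (14.6%), against 3.19% and 5.95%. All 6 matches to YY1 lay across or after the start, since none was found in the 250 bases before it, where 1.83% of all genes held 1. Motifs were searched separately, and overlaps between them were not removed. In all, 23 of the 41 promoters held at least 1 of the 3 motifs and 3 held 2 or more.

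The stretches below carry these matches in capitals and are written 5′ to 3′ along the gene. The first 3 were chosen as promoters of complexes I, II and IV with the match before the start, *Uqcrc1* because it is the gene called between the columns below, and the last 4 as examples of matches close to the start.
Ndufa11, NRF1, chr17:56717677-56717736, plus strand: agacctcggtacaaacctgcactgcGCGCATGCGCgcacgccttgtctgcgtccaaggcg
Sdhd, NRF1 then ETS, chr9:50603864-50603953, minus strand: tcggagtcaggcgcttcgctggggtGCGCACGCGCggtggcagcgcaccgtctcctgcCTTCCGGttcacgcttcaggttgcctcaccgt
Cox6a1, NRF1, NRF1 then ETS, chr5:115348959-115349145, minus strand: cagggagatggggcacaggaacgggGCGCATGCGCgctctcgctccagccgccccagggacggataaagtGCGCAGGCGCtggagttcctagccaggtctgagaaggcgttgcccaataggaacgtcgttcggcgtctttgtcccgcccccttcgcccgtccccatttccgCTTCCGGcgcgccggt
Uqcrc1, NRF1, chr9:108936644-108936671, plus strand: ttccttacaGCGCTTGCGCctcagactc
Ndufs6, NRF1, chr13:73328480-73328507, minus strand: gactgctgtGCGCCTGCGCcggcacttg
Ndufs4, YY1, chr13:114388045-114388069, minus strand: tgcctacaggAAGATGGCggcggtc
Ndufb8, YY1, chr19:44555393-44555414, minus strand: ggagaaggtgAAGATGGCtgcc
Ndufs7, YY1, chr10:80249463-80249490, plus strand: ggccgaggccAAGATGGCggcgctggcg

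In *Uqcrc1* the match begins at base 6 of the transcript, and in *Ndufs7*, *Ndufs4* and *Ndufb8* it begins at bases 25, 36 and 39. In *Ndufa11*, *Sdhd* and *Cox6a1* the first match begins 60, 79 and 162 bases before the start. A match is a stretch of letters and not evidence of binding.

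The DEX and VEH libraries of the 9 leukemias were compared with leukemia as a block. Of the 51 genes, 1 was called, *Uqcrc1*, which was higher in DEX columns. Over all 11339 genes tested 1475 were called (13.0%), 705 higher (6.22%) and 770 lower (6.79%), beside 1.96% of the respiratory chain genes. *Uqcrc1* (ENSMUSG00000025651, chromosome 9 of GRCm38, 108936633 to 108949623) encodes core protein 1 of complex III. It was at 21.7 (73M), a median of 25.8 and 34.9 FPKM (8633) in the VEH libraries and at 23.4 (20M), a median of 29.6 and 37.9 FPKM (JW14) in the DEX libraries. The columns overlapped, but within each leukemia the DEX library was the higher, in 9 of 9. The log2 fold change was 0.23 (SE 0.056, edgeR adjusted p = 0.0226), or 17.1% higher. The adjusted p was 0.0627 without 2M and 0.0533 without 73M, and 0.0831 with the ribosomal RNA libraries as a term. The log2 fold change in these 3 fits was 0.20, 0.21 and 0.21. Over 21 alternatives it was 0.17 to 0.27, with an adjusted p of 0.00218 to 0.849 and the call kept in 12.

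The other 50 genes did not pass, yet their fitted changes leaned to one side. Of the 51 genes, 47 were fitted higher in DEX columns, where 50.9% of all genes tested were, and the median log2 fold change was 0.0925 against 0.00387. The changes were small, from -0.054 for *Cox5a* to 0.25 for *Ndufb7*, with a median SE of 0.060. The 4 genes fitted lower were *Cox5a*, *Ndufs5*, *Ndufs1* and *Ndufa6*, with unadjusted edgeR p of 0.354 to 0.923. At an unadjusted p of 0.05, 17 of the 51 genes passed in edgeR (33.3%, against 31.5% of all genes), and all 17 were higher in DEX columns (15.8% of all genes).

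**Figure D4:**
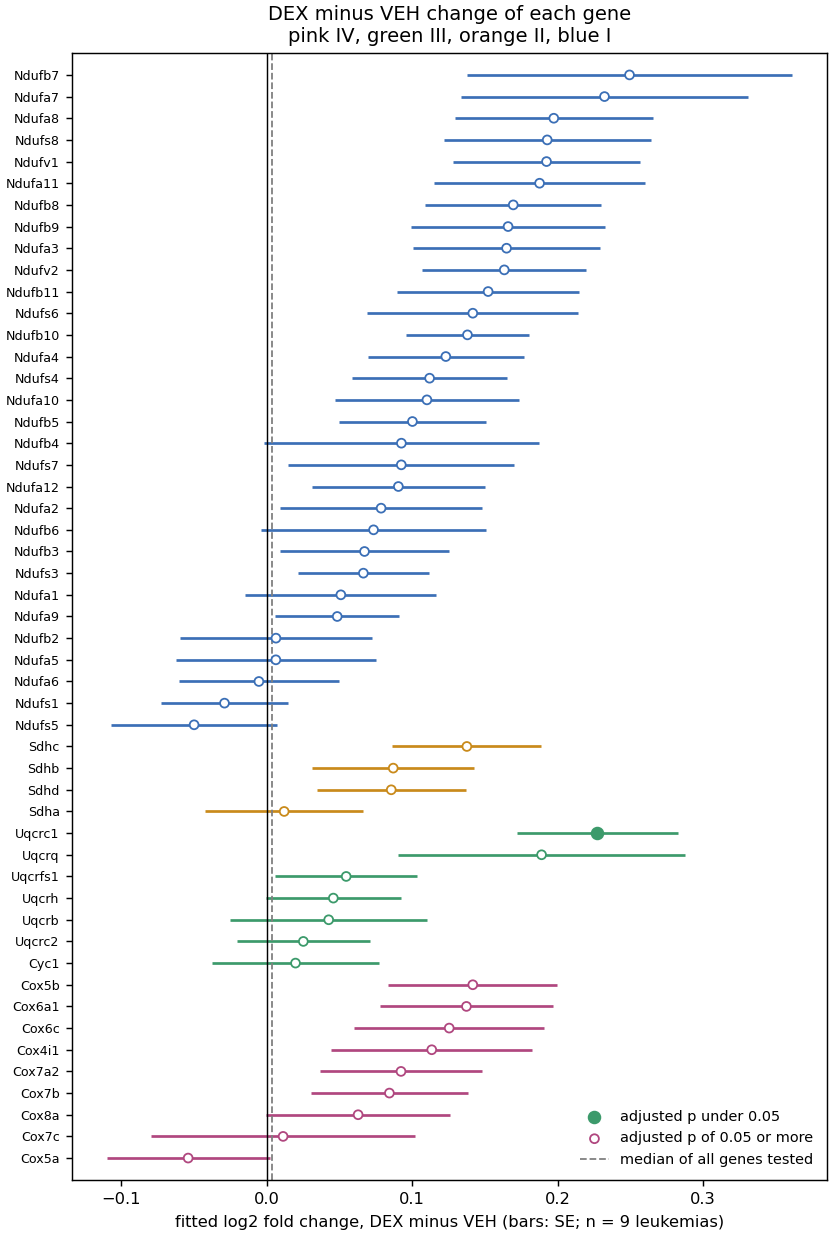
Fitted log2 fold change between DEX and VEH columns (horizontal axis) of each of the 51 genes (vertical axis), grouped by complex, with bars for the SE from 9 leukemias and the median of all genes tested as a dashed line. *Uqcrc1* at 0.23 is the filled point, and 47 of the points lie right of zero.

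By complex, 28 of 31 genes of complex I were fitted higher (median 0.11), 4 of 4 of complex II (0.086), 7 of 7 of complex III (0.046) and 8 of 9 of complex IV (0.092). No gene of complexes I, II or IV was called in edgeR. At an unadjusted p of 0.05 there were 13, 1 and 2, and DESeq2 called 3, 0 and 0. After *Uqcrc1* the smallest p in complex I belonged to *Ndufb10* of the membrane arm, which, like the genes in the next sentences, was picked after its values were seen. It was at 32.2, a median of 40.8 and 47.1 FPKM in VEH libraries and 32.6, a median of 44.1 and 51.6 FPKM in DEX libraries, and higher in DEX in 8 of 9 leukemias (log2 fold change 0.14, SE 0.043, edgeR adjusted p = 0.0521). *Ndufv1* and *Ndufv2*, which form the NADH-oxidizing end of complex I, were at 0.19 (SE 0.064, adjusted p = 0.0671) and 0.16 (SE 0.056, adjusted p = 0.0732) in edgeR. DESeq2 called *Ndufb10*, *Ndufv1*, *Ndufv2* and *Uqcrc1*, 4 of 51 genes where it called 2169 of all genes (19.1%).

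Leaving out 5C raised the number called in edgeR from 1 to 6, adding *Ndufb8*, *Ndufb9*, *Ndufb10*, *Ndufv1* and *Ndufv2*, while the number over all genes rose to 2036 (17.9%). Leaving out 2M or 73M left 0 called, where 6.39% and 7.48% of all genes were, with 9 and 8 at an unadjusted p of 0.05 (27.3% and 26.4% of all genes). Adding 4638 gave 2 (12.4% of all genes). In 5C the VEH library is the one over 1 ribosomal RNA count per M, while in 20M, 73M, JW14 and JW81 it is the DEX library. With these libraries as a term 0 of the 51 genes were called in edgeR and 4 passed an unadjusted p of 0.05, and 47 were fitted higher. In the same fit 465 of all genes were called (4.10%) and 22.1% passed an unadjusted p of 0.05.

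Counted in each leukemia on the FPKM scale, the respiratory chain genes split. The number higher in the DEX library was 42 of 51 in 2M and in 73M, 41 in 8633, 36 in 78A, JW14 and JW81, 21 in 20M, 15 in 5C and 9 in 73A. Over all genes tested the share higher in DEX was 39.8% to 53.05%, so 2M, 73M, 8633, 78A, JW14 and JW81 were above it at 70.6% to 82.4%, 20M lay within it at 41.2%, and 5C and 73A were below it at 29.4% and 17.6%. After TMM scaling the numbers were 18 in 73A, 22 in 5C and 26 in 20M, and 30 to 47 in the other 6. On that scale 45.6% (JW14) to 53.5% (8633) of all genes tested were higher in DEX. In 4638 the number was 27 on both scales.

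**Figure D5:**
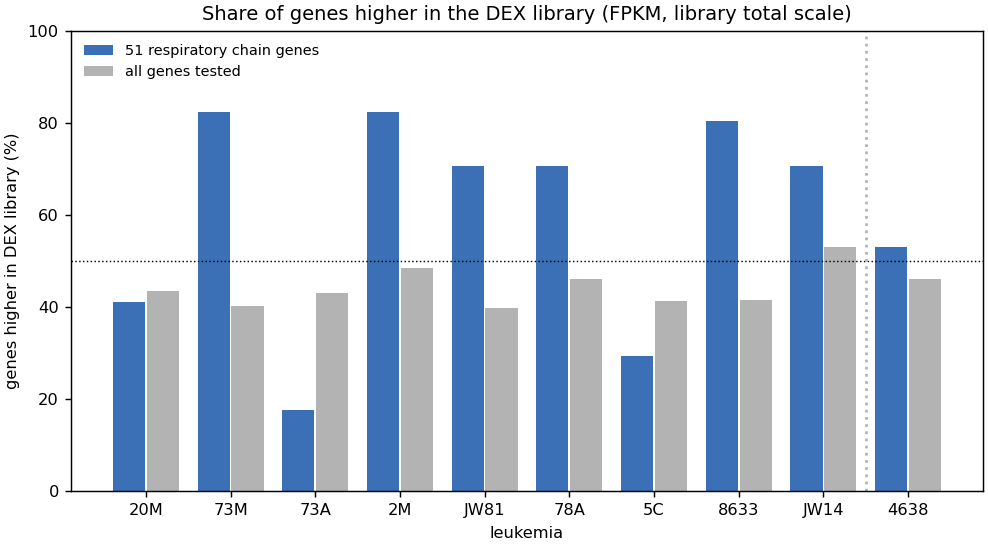
Share of genes with a higher FPKM in the DEX than in the VEH library (vertical axis, percent) in each leukemia (horizontal axis), for the 51 respiratory chain genes (blue bars) and all genes tested (gray bars), with 4638 right of the dotted line. The blue bars reach 70.6% to 82.4% in 6 leukemias and 17.6% in 73A, while the gray bars stay between 39.8% and 53.05%.

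The mean change of the complex score was 0.056 ± 0.105 for complex I, 0.029 ± 0.066 for complex II, 0.035 ± 0.087 for complex III and 0.029 ± 0.124 for complex IV (SD, n = 9), higher in DEX in 7, 6, 7 and 6 of 9 leukemias. On the TPM scale the means were 0.0068, -0.021, -0.016 and -0.022, so the direction of the scores of complexes II, III and IV turned with the scale. The scores were then higher in DEX in 4, 4, 5 and 4 of 9 leukemias. After TMM scaling the means were 0.104, 0.078, 0.084 and 0.078, higher in 7, 7, 7 and 6 of 9. With 1 leukemia left out the FPKM means stayed above zero, at their highest without 73A (0.076, 0.045, 0.056 and 0.055) and at their lowest without 73M (0.037, complex I), 78A (0.020, complex II), 2M (0.023, complex III) and 73M (0.011, complex IV). Each mean was smaller than its SD across leukemias. All 4 complexes had their most negative change in 73A, at -0.105, -0.095, -0.138 and -0.182. The most positive changes were 0.206 and 0.17 for complexes I and IV, in 73M, 0.1002 for complex II in 78A and 0.127 for complex III in 2M. Taken relative to the median of all genes, the median of the 51 genes was higher by 0.086 ± 0.12 on the FPKM scale, 0.097 ± 0.125 after TMM scaling and 0.083 ± 0.11 on the TPM scale (SD, n = 9), and above it in 7, 7 and 6 of 9 leukemias. The median of all genes itself was at -0.036, 0.002 and -0.084 on these scales.

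Marker lists differed between the columns in some leukemias. In 73A the erythroid list changed by -1.20 and the neutrophil list by -0.75 between DEX and VEH libraries, and in 73M by -2.49 and -1.17, while 9 and 42 of the 51 genes were higher in DEX there. In JW81 the neutrophil list changed by -1.36, the most of any leukemia, and the erythroid list by 0.40, with 36 of the 51 genes higher in DEX. The neutrophil list had higher values in the DEX libraries of 78A (by 0.52, 10 of 10 genes) and 8633 (by 0.45, 9 of 10), where 36 and 41 of the 51 genes were higher in DEX. The neutrophil list changed by -0.37 in 20M (0 of 10 genes higher), -0.36 in 5C (1 of 10) and -0.39 in JW14 (3 of 10). The B lineage list changed by -1.02 in 73M, with 0 of 8 genes higher. The macrophage list changed by 0.35 in 2M and 0.30 in 78A, with 8 of 8 genes higher in each. It changed by -0.43 in JW14 and -0.30 in 20M, with 0 of 8 higher in each, and by -0.33 in 73A (1 of 8). Over the 9 leukemias the changes were -0.30 ± 0.95 (erythroid), -0.37 ± 0.66 (neutrophil), -0.030 ± 0.29 (macrophage), -0.15 ± 0.34 (B lineage) and -0.15 ± 0.10 (T lineage; SD, n = 9). In 8 of 9 leukemias the DEX library had the lower T lineage value. In edgeR 1 of 8 T lineage genes tested was called, lower in DEX columns, where 13.0% of all genes were called, with 2 at an unadjusted p of 0.05 and 2 by DESeq2. None was called of 6 erythroid, 9 neutrophil, 6 macrophage and 1 B lineage genes in edgeR, with 0, 2, 0 and 0 at an unadjusted p of 0.05 (31.5% of all genes) and 0, 1, 0 and 0 by DESeq2 (19.1% of all genes). Without 73A and 73M 0 of the 51 genes were called in edgeR, 8 passed an unadjusted p of 0.05, and 47 were fitted higher, while 2.48% of all genes were called and 21.4% passed an unadjusted p of 0.05. Without JW81 1 of the 51 was called and 8 passed an unadjusted p of 0.05, against 8.56% and 27.2% of all genes. The part of other cells in the changes was not tested.

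The 13 subunits of the same chain and of ATP synthase that mitochondrial DNA encodes were measured in the same libraries and, with the other mitochondrial genes, took 4.10% to 8.01% of a library. None was called in edgeR (13.0% of all genes were) and DESeq2 called 0 (19.1% of all genes). At an unadjusted p of 0.05 in edgeR 4 of 13 passed, a share near the 31.5% of all genes, and these 4 were fitted higher in DEX columns. *mt-Nd1*, a core subunit of complex I, was at a median of 1215 FPKM in VEH and 1350 FPKM in DEX libraries and higher in DEX in 8 of 9 leukemias (log2 fold change 0.19, SE 0.074, edgeR adjusted p = 0.105). *mt-Nd3* (0.21, SE 0.082, adjusted p = 0.108) and *mt-Nd2* (0.18, SE 0.076, adjusted p = 0.135) were next in edgeR. JW14 went the other way, with 0 of 13 higher in DEX and a mean change of -0.38, while 78A had 13 of 13 higher and a mean change of 0.30. Without JW14 3 of the 13 were called in edgeR, *mt-Nd1*, *mt-Nd2* and *mt-Nd3*, all higher in DEX columns, where 11.2% of all genes were called. Across leukemias these genes were highest in 8633 (10.29), 5C (10.27) and JW14 (10.16) in mean log2(FPKM + 1), the 3 leukemias that were also highest in the complex I score. They were lowest in 78A (9.49), whereas the nuclear genes were lowest in 20M.

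Related genes encoded in the nucleus were counted in the same fit. Of the other nuclear subunits of complexes I, III and IV, 0 of 9 tested were called in edgeR, 6 passed an unadjusted p of 0.05 (5 of them higher) and DESeq2 called 2, where 13.0%, 31.5% (15.8% higher) and 19.1% of all genes did. The smallest p was that of *Cox6b1*, a complex IV subunit facing the intermembrane space (log2 fold change 0.17, SE 0.056, edgeR adjusted p = 0.0615). Of the 15 ATP synthase genes tested 0 were called, 3 passed an unadjusted p of 0.05, a smaller share than of all genes, and DESeq2 called 0. Their median log2 fold change in edgeR was 0.11, near that of complex I. Of the tissue-restricted isoforms of complex subunits, 2 of 8 were expressed enough to be tested, *Cox6a2* and *Cox7a1*, and neither was called (0 at an unadjusted p of 0.05 in edgeR and 0 by DESeq2).

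The genes called in the related lists were lower in DEX columns, where 6.79% of all genes were called lower. They were 6 of 121 genes tested over 8 lists. Of 40 assembly factors 2 were called, *Ndufaf4*, which helps to assemble complex I (log2 fold change -0.42, SE 0.094, edgeR adjusted p = 0.0158), and *Cox17*, the copper chaperone of complex IV (-0.23, SE 0.054, adjusted p = 0.0182). Both were lower in DEX in 9 of 9 leukemias, *Ndufaf4* from a median of 9.19 to 5.22 FPKM and *Cox17* from 5.55 to 4.47 FPKM.

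Of 16 genes of the tricarboxylic acid cycle and pyruvate entry 1 was called, *Dlat*, a subunit of pyruvate dehydrogenase (-0.18, SE 0.047, edgeR adjusted p = 0.0294, lower in 8 of 9 leukemias). Of 14 genes for electron carriers and substrate entry 1 was called, *Gpd2* of the glycerol phosphate shuttle, lower in 9 of 9 leukemias at a median of 9.83 FPKM in VEH and 7.33 FPKM in DEX libraries (-0.32, SE 0.074, edgeR adjusted p = 0.0177). Of 12 regulators of mitochondrial biogenesis 2 were called. *Pprc1*, a coactivator related to PGC-1, fell by 0.73 on the log2 scale (SE 0.17, edgeR adjusted p = 0.0194) and *Myc* by 0.77 (SE 0.23, edgeR adjusted p = 0.0478), lower in 8 and 6 of 9 leukemias. With 1 leukemia left out at a time *Ndufaf4*, *Cox17* and *Gpd2* were called in 9 of 9 fits and *Pprc1* in 7 (not without 20M or 2M). *Dlat* was called in 4 (not without 20M, 2M, 73A, 73M or 8633) and *Myc* in 3 (not without 20M, 2M, 73A, 73M, 78A or JW81). Adding 4638 left 4 of the 121 genes called (12.4% of all genes), *Gpd2*, *Ndufaf4*, *Pprc1* and the assembly factor *Sco2*. *Cox17*, *Dlat* and *Myc* were not called in that fit. With the ribosomal RNA libraries as a term 0 of the 121 genes were called in edgeR (4.10% of all genes), with 13 at an unadjusted p of 0.05 (10.7%, against 22.1% of all genes). Without 73A and 73M 0 were called (2.48% of all genes), with 15 at an unadjusted p of 0.05 (12.4%, against 21.4%). The number was 3 without 20M or without 2M (5.97% and 6.39% of all genes) and 13 without 5C (17.9% of all genes).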

How the data were processed

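RNA from bone marrow was made into poly(A)-selected TruSeq libraries and read from both ends. The authors used Bowtie 2 for alignment (mm10) and RSEM for quantification, and the deposited values are expected counts per gene, although the table is named for FPKM. RSEM divides reads shared by several transcripts, so near-identical copies, such as the processed copies of *Uqcrh*, can exchange counts. The gene annotation behind the table was not given in the sources used here. All 20 columns were matched to leukemias by name. For the DEX columns of 2M, 73A and 4638 the last part of the name differs from the label, and these were assigned to the leukemia only. The engineered genotype of some of the mice in which leukemias arose is not reported here.

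FPKM were calculated from the deposited expected counts with merged exon lengths of GENCODE M21 (GRCm38), found for 37693 genes (96.6%), and the library total. Levels are log2(FPKM + 1), which understates changes of low genes. For tests, expected counts were rounded, and the 11339 genes averaging 1 FPKM or more over 18 libraries entered edgeR 4.0.16 in R 4.3.3 (quasi-likelihood, TMM, leukemia as a block, Benjamini-Hochberg at 0.05). SE were derived from the F statistic. The block pairs the libraries because both come from the same leukemia by their labels. Nothing states that the 2 libraries of a leukemia came from separate mice. The p-values rest on the spread that remains after leukemia and column are fitted, which is how far the DEX minus VEH difference varied over the leukemias. That spread holds differences between tumors in the change as well as spread between libraries, which may be technical. DESeq2 1.42.0 was an alternative. Scripts were checked on simulated counts.

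Tables were made in Python 3.11.15 with pandas 2.3.3. The 51 genes, the related lists, the marker lists and the alternatives were chosen with earlier results of these data known. Genes named were those called, the highest and lowest of each complex, the 5 widest and 5 narrowest ranges, those on chromosome 15, the mitochondrially encoded subunits and at most 3 genes per related list. Others are said to be picked after their values were seen. *Ndufb1-ps* and *Ahsp* of the lists were not matched in the table. Floors cover counting error only.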

Additional observations from a re-analysis of the deposited data

Results flagged for a closer look

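For 12 gene lists and the 51 genes, the level across the 9 leukemias and the change between DEX and VEH libraries were compared with Dixon's critical value. Of 126 sets of values 3 exceeded it, where chance gives about 1 in 20. The mitochondrially encoded subunits changed by -0.377 in JW14, apart from the other leukemias at -0.0397 to 0.296, with a gap of 0.501 of the range. The DEX library of JW14 is the shallowest of all and is among the 5 over 1 ribosomal RNA count per M. *Cox7a2* was at 4.51 in log2(FPKM + 1) in 5C, below the others at 5.58 to 6.18, in both of its libraries, with a gap of 0.644. *Uqcrb*, a complex III subunit with an exon that overlaps a predicted gene, was at 5.61 in 73M against 5.95 to 6.25 elsewhere, with a gap of 0.533, at 45.01 FPKM in the DEX and 50.97 FPKM in the VEH library.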

How the results depend on the processing

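The number of respiratory chain genes called between DEX and VEH columns was 1 in edgeR. It was 0 without a filter, with the ribosomal RNA libraries as a term (alone or with a length offset), without the leukemia as replicate block, in the 4 leukemias without such libraries, in the 5 with 1, and without 73A and 73M together. At an unadjusted p of 0.05 these fits had 5, 4, 4, 0, 3, 9 and 8 genes (17.1%, 22.1%, 22.1%, 6.22%, 22.7%, 21.8% and 21.4% of all genes). It was 2 with 4638, 4 with DESeq2 and 0 to 6 with 1 leukemia left out (0 without 2M or 73M, 6 without 5C). The number over all genes, 1475 (13.0%), was 1430 with 4638 (12.4%), 2169 with DESeq2 (19.1%) and 1787 of 27912 without a filter. It was 465 and 462 with the ribosomal RNA term, 8 without the replicate block, 479 in the 4 and 15 in the 5 leukemias, 278 without 73A and 73M, and 675 to 2036 with 1 left out, falling to 675 without 20M, 725 without 2M, 763 without 73A, 846 without 73M and 973 without JW81. Of the related genes 6 were called. This was 0 with the ribosomal RNA term in both forms, without the replicate block, in the 5 leukemias and without 73A and 73M, 2 in the 4 leukemias, 12 with DESeq2, and 3 to 13 with 1 left out (3 without 20M or 2M, 13 without 5C). The cause was not tested. In all 21 alternatives the median change of the 51 genes stayed above zero (0.057 to 0.11), with 39 (with a length offset) to 47 fitted higher.

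Between leukemias 43 to 50 of the 51 genes differed in the 19 alternatives run, where 47.3% (without a filter, 50 of the 51) to 87.5% (with 4638, 49 of the 51) of all genes did. DESeq2 and the fit without the replicate block were not run for it. The lowest number, 43, was in the 5 leukemias, where 69.4% of all genes differed. The ranges of the complex scores and their mean DEX minus VEH changes moved by less than 1 SD in 72 of 72 and 64 of 64 values, although the small mean changes turned sign with TPM (complexes II, III and IV) and with the median over genes (complexes II and III, at -0.00035 and -0.0498). In 62 of the 72 ranges 20M was lowest and in 60 JW14 was highest. Many of these had to agree, since leaving out a leukemia at neither end cannot change the ends or the range. The setting with genes of at least 1 FPKM removed no gene and so repeated the main values. Leaving out a single leukemia can move a mean change by only part of its SD, and each SD was larger than its mean. Staying within 1 SD therefore says little about the mean changes. That of complex I fell from 0.056 to 0.0068 with TPM and still counted as within 1 SD. With only the 250 bases before the start, YY1 matches were at 0% of promoters. The 2 columns of a leukemia have 1 library each, so spread between mice could not be told apart from the column. Added after seeing the data were the length offset with the ribosomal RNA term, the omission of 73A and 73M, the scores with basic transcript lengths, the tests between leukemias within the 4 and the 5 leukemias, and the alternatives for the related genes.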
